A study of Rattus norvegicus with 13 samples.

Results

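A set of 9 genes of iron and copper handling was examined in rat frontal cortex: Cp, Steap4, Atp7a, Atp7b, Tf, Tfrc, Fth1, Ftl1 and Slc40a1. The rule took the array probes whose gene name in the scanner files equals a listed name. It found 17 probes for 8 of the 9 genes, out of 30367 probes on the array. Of the 17, 14 passed the filter on dim probes (well above background on every array of a group), and each of the 8 genes kept at least 1 probe. The ferritin light chain is named Ftl in the files, so the rule found no probe for Ftl1. Its 1 probe was matched through its RefSeq accession and is given beside the others as a gene outside the rule. The genes were chosen from how their probes differed between trauma and sham, so those differences are a description and carry no test.

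The animals were male Sprague-Dawley rats, and tissue was taken 1 month after trauma or sham surgery. Rotational trauma, a head injury by rotational acceleration, was measured on 3 arrays beside 3 arrays of its own sham. Lateral fluid percussion, a fluid pressure pulse to the side of the brain, was measured on 3 arrays beside 4 of its own sham. Shams had the anaesthesia and the surgery but no trauma. Nothing in the labels ties the replicates to separate litters or surgery days, and the p-values measure the spread between these samples.

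Each model was hybridised on a slide of its own, and differences between models cannot be told apart from slide. The position of an array on its slide was read from the last 2 numbers of the scanner file name, the first taken as the column. The labels do not state it. By this reading, trauma and sham lay in different columns within a slide, and the order was reversed between slides. Rotational sham and percussion trauma lay in column 1, where 72.7% to 74.1% of spots were well above background. Rotational trauma and percussion sham lay in column 2, where the share was 67.0% to 72.5%. The part of slide position in the results was not tested. Levels are log2 signals minus the array's 75th percentile, so a negative level is a signal below that percentile and levels of different probes are not compared. Bulk tissue was measured, in which fewer cells of a type and less RNA per cell cannot be told apart.

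Iron enters most cells bound to transferrin (Tf), which the transferrin receptor (Tfrc) takes up, and what is not used is stored in ferritin, a shell of heavy (Fth1) and light (Ftl1) chains. It leaves through ferroportin (Slc40a1), and the copper enzyme ceruloplasmin (Cp) oxidises it as it leaves. Astrocytes carry ceruloplasmin on a lipid anchor in the cell membrane, and oligodendrocytes are a main source of transferrin in the brain. Steap4 reduces iron and copper at membranes, and the pumps Atp7a and Atp7b load copper onto copper enzymes and move excess copper out.

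Parts of 4 probes are shown because the values of Cp, Steap4 and Atp7a rest on them and because the 2 Cp probes read different transcript records. The first 30 bases of each 60-base probe are given, 5′ to 3′.
Cp, probe A_64_P092201: ctttgcccctcaaaagctatattctaaatt
Cp, probe A_64_P036925: gttgaaggatgctctcggaaaatagagaaa
Steap4, probe A_64_P089555: cagaccatattcagttttcactaagaggac
Atp7a, probe A_43_P12743: tgagttttaattgttaatggcaaaaatacc
The files place the first Cp probe at chr2:105148774-105148833 on the plus strand of rn4, on the record AF202115, which they describe as GPI-anchored ceruloplasmin. The second lies at chr2:105135264-105135323, on NM_012532. The Steap4 probe lies at chr4:22688668-22688727 on the minus strand and the Atp7a probe at chrX:94249710-94249769 on the plus strand. Whether each lies in coding sequence or in a UTR was not analysed here.

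The promoters of Cp and Steap4, both higher in rotational trauma, are shown as the 250 bases before the gene's start, from the RefSeq table of GRCr8. Capitals mark matches to TTGCNNAA, a C/EBP motif, and to TTCNNNGAA, a STAT motif, on either strand.
Cp, chr2:104368420-104368669, plus strand: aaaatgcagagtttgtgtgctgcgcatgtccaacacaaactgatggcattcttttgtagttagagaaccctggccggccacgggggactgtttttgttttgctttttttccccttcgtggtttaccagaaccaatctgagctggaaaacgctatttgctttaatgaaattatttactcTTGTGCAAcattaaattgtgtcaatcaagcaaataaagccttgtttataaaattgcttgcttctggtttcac
Steap4, chr4:27054770-27055019, minus strand: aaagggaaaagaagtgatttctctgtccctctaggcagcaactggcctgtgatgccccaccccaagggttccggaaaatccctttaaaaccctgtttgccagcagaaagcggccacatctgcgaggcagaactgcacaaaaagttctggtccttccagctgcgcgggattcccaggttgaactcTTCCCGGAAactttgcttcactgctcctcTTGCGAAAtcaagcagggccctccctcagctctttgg
The table held promoters of 7 of the 9 genes. The C/EBP motif was in 3 of them (Cp, Steap4 and Tf) and in 9.22% of all 33469 promoters. The STAT motif was in Steap4 alone of the 7 and in 7.67% of all promoters. A metal response element, searched as TGCNCNC, was in 4 (Atp7b, Slc40a1, Tf and Tfrc) and in 43.4% of all, and the hypoxia motif ACGTG was in Tfrc and in 16.6% of all. The motifs do not overlap in the printed sequences, and these are matches of letters only.

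Ceruloplasmin, the ferroxidase, was higher in every trauma array than in every array of its own sham, in both models. On the probe of the GPI-anchored record, the rotational shams read -1.89, -2.07 and -2.05 and the trauma arrays -0.42, -1.62 and -0.96. The percussion shams read -1.99, -2.32, -2.24 and -2.73 and the trauma arrays -0.78, -1.29 and -1.47. The rotational trauma arrays were spread widely, and array 2 stood nearest to the shams. The difference of means was 1.01 (SE 0.28), or 2.01-fold, after rotational trauma (-2.01 ± 0.10 to -1.0 ± 0.60, SD, n = 3 and 3). It was 1.14 (SE 0.26), or 2.20-fold, after percussion (-2.32 ± 0.31 to -1.18 ± 0.36, SD, n = 4 and 3). Of all 17244 genes tested, 96 (0.557%) were higher without overlap in both models.

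The second Cp probe, on NM_012532, differed by 0.86 after rotational trauma and by 0.92 after percussion. Its rotational groups overlapped, with trauma arrays at -1.69, -3.67 and -1.87 against shams at -2.77, -3.68 and -3.35. Its percussion groups did not overlap, with trauma at -2.49, -3.02 and -3.10 against shams at -3.48, -4.31, -3.46 and -3.91. In both probes, rotational trauma array 2 read lowest of its group. The remaining Cp probe, A_43_P11448, was not well above background on any array.

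Steap4, the metalloreductase, was higher in all 3 rotational trauma arrays. The shams read -4.69, -4.88 and -4.83 and the trauma arrays -3.57, -3.67 and -3.47, a difference of 1.23 (SE 0.27), or 2.35-fold (-4.80 ± 0.10 to -3.57 ± 0.10, SD, n = 3 and 3). Both groups were tight. After percussion the groups overlapped, with shams at -5.55, -6.20, -5.34 and -5.07 and trauma arrays at -5.14, -5.56 and -4.58. The percussion difference was 0.45 (SE 0.26), and it was 0.20 without percussion trauma array 3 and 0.68 without array 2. Only 1 of the 4 percussion shams was well above background on this probe. With normexp background correction and quantile normalisation, the rotational difference was 0.74. The other 2 Steap4 probes did not pass the filter on dim probes. A_64_P124070 was well above background on 2 of 3 rotational shams and on 0 of 3 rotational trauma arrays. Its measured means there were -6.15 and -6.50, the opposite order to the main probe, with no bound on a fold. A_64_P089561 was not well above background on any array, with rotational means of -7.73 and -6.72.

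**Figure D1:**
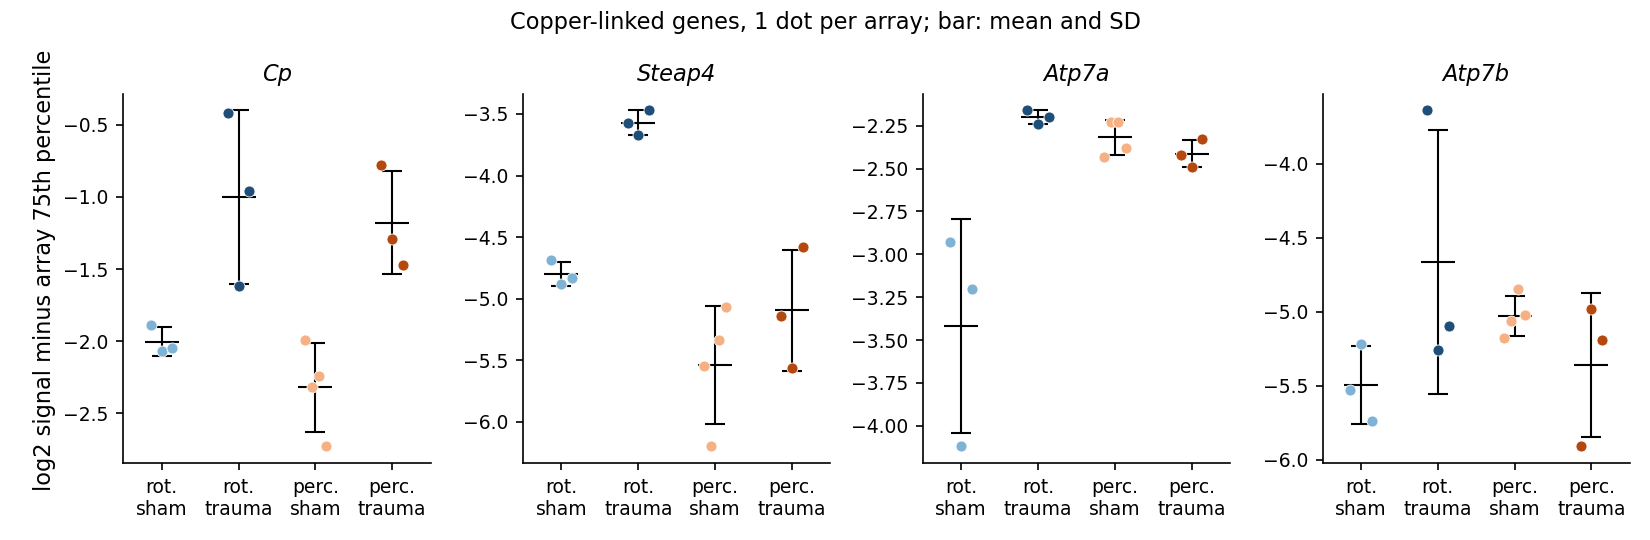
Levels of Cp, Steap4, Atp7a and Atp7b, 1 dot per array (vertical axis, log2 signal minus the array's 75th percentile, with its own range in each panel), by group (horizontal axis; rot., rotational; perc., percussion); bars are the mean and SD. Cp is higher in trauma in both models, while in Atp7a the 3 rotational shams lie below every other array.

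Atp7a, the copper pump mutated in Menkes disease, differed by 1.21 (SE 0.23), or 2.32-fold, after rotational trauma (-3.42 ± 0.63 to -2.20 ± 0.04, SD, n = 3 and 3). The shams read -2.93, -4.12 and -3.20 and the trauma arrays -2.16, -2.24 and -2.20. After percussion the shams read -2.43, -2.23, -2.23 and -2.38 and the trauma arrays -2.42, -2.49 and -2.33, a difference of -0.10 (SE 0.21). The rotational shams were low and spread, and the 3 other groups lay within -2.49 to -2.16. Without rotational sham array 2 the rotational difference was 0.86. A dimmer probe, A_64_P063554, was not well above background on any rotational sham and was so on 1 of 3 rotational trauma arrays, with measured means of -7.19 and -5.47 that give no fold. After percussion it was well above background on 0 of 4 shams and on 3 of 3 trauma arrays. Its percussion means were -6.33 and -5.88, the opposite order to the main probe.

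Atp7b, the copper pump mutated in Wilson disease, was not separated in either model. The rotational shams read -5.53, -5.22 and -5.74 and the trauma arrays -3.64, -5.26 and -5.10. The difference of 0.83 (SE 0.37) was 0.31 without rotational trauma array 1. The percussion shams read -5.18, -5.06, -4.85 and -5.02 and the trauma arrays -5.91, -4.98 and -5.19, a difference of -0.33 (SE 0.35) that was -0.06 without trauma array 1. The second Atp7b probe gave -0.30 after rotational trauma, the opposite sign to the first, and -0.52 after percussion. That probe was well above background on all 6 arrays of column 1 and on none of column 2, although its mean level was -5.60 in rotational sham and -5.29 in percussion sham.

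**Figure D2:**
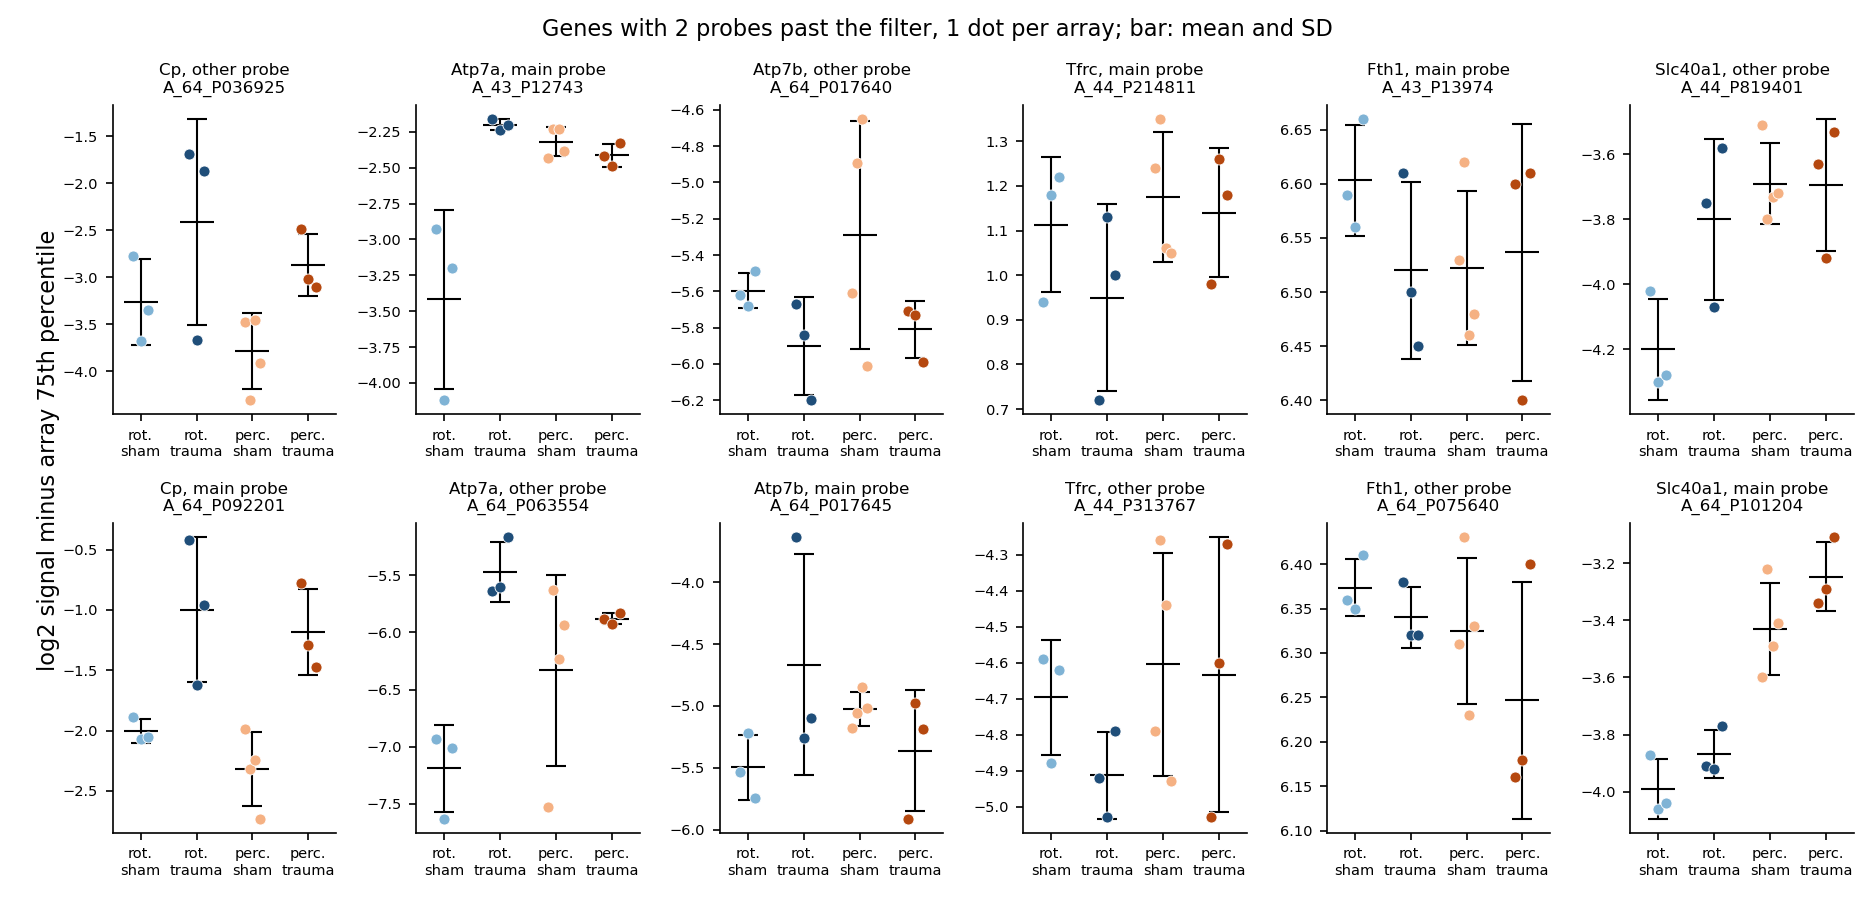
The 6 genes with 2 probes past the filter, 1 dot per array, with the mean and SD (vertical axis, log2 signal minus the array's 75th percentile, with its own range in each panel; horizontal axis, group). The Cp and Atp7a pairs have higher means after rotational trauma in both probes (the dimmer Atp7a probe is not well above background on 5 of these 6 arrays). The Atp7b pair shows opposite directions after rotational trauma, and both of its probes have lower means after percussion. The second Atp7b probe is not well above background on any rotational trauma or percussion sham array.

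Without overlap, 3 of the 8 genes found by the rule were higher after rotational trauma (Cp, Steap4 and Atp7a), against 4.87% of all genes, and 0 were lower, against 10.6%. After percussion 1 of 8 was higher (Cp), against 5.9%, and 0 were lower, against 3.83%. These counts follow from how the genes were chosen. The median difference over the 8 was 0.51 after rotational trauma and 0.09 after percussion, and over all genes -0.03 and 0.01. By limma at an adjusted p of 0.05, 2 genes in all (0.0116%) passed after rotational trauma and 0 after percussion, with 1183 and 1945 at an unadjusted p under 0.05.

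Markers of other cell types were higher beside Cp. The mean difference of all 11 meninges and fibroblast markers was above 0 in both models, against 39.8% of all genes after rotational trauma and 52.7% after percussion, with medians of 1.05 and 1.29. None of the 11 passed by limma in either model. Higher without overlap were 5 after rotational trauma and 10 after percussion, against 4.87% and 5.9% of all genes. Their summed level, on the log2 scale, was 3.26 to 4.16 in rotational sham and 4.34 to 5.29 in rotational trauma, and 3.26 to 4.33 in percussion sham and 4.66 to 5.72 in percussion trauma. These sums did not overlap, and the trauma array with the highest Cp in each model also had the highest marker sum. The mural markers, of the cells that wrap small vessels, had all 6 mean differences above 0 in both models, with 0 passing. Their sum was 0.92 to 1.19 and 1.40 to 1.97 in rotational sham and trauma, and 1.42 to 1.77 and 1.81 to 2.50 in percussion sham and trauma, also without overlap. Of 10 choroid plexus markers 4 passed the filter, all 4 were higher after rotational trauma and 3 after percussion, and Kl, Slc4a5 and Clic6 were not above background on any array. The choroid plexus sum was -1.65 to -0.05 and -0.73 to 0.23 in rotational sham and trauma, and -1.93 to -0.78 and -0.91 to 0.45 in percussion sham and trauma, and these ranges overlapped in the rotational model and in the percussion model. The part of these cells in the Cp values was not tested. The summed astrocyte level was 6.14 to 6.26 and 6.14 to 6.28 in rotational sham and trauma, and 6.05 to 6.18 and 6.11 to 6.30 in percussion sham and trauma, a sum led by its brightest gene, S100b. Some single astrocyte markers differed more: Vim by 0.84 and 1.07, and Gfap by 0.98 after percussion and -0.36 after rotational trauma. Of the 8 measured, 3 had a mean difference above 0 after rotational trauma (median -0.02) and 5 after percussion (median 0.10). Higher without overlap were 2 of the 8 in each model, against 4.87% and 5.9% of all genes. These were Vim and Gjb6 after rotational trauma, and Vim and Gfap after percussion. For liver, the main source of ceruloplasmin in serum, 3 of 5 markers passed the filter. Apoa1 and Fgb were not above background on any array. The summed liver level was 1.23 to 1.47 over the 13 arrays, a sum led by its brightest gene, Ahsg.

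**Figure D3:**
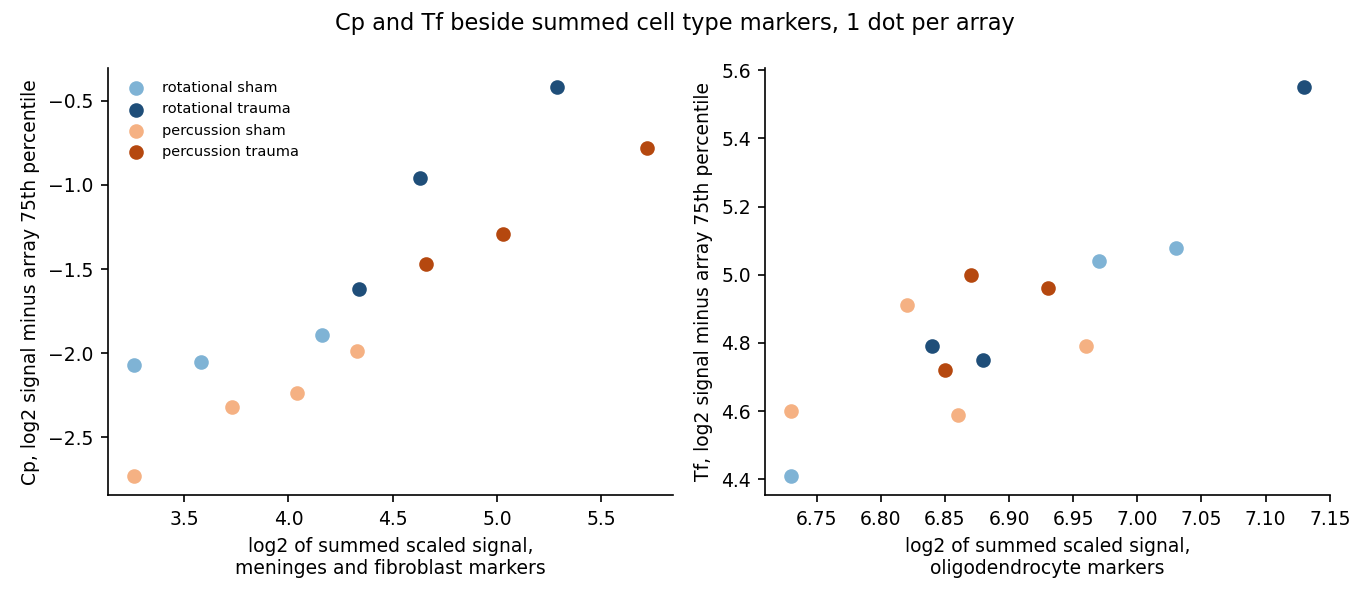
Left, Cp against the log2 of the summed signal of 11 meninges and fibroblast markers; right, Tf against that of 10 oligodendrocyte markers; both vertical axes are log2 signal minus the array's 75th percentile, 1 dot per array, coloured by group. In each model the trauma arrays lie above their shams on both axes of the left panel. Taken over both models, the order of arrays by Cp is not the order by marker sum. At right, rotational trauma array 1 is highest in both Tf and oligodendrocyte signal.

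Transferrin, the iron carrier, did not separate trauma from sham. The rotational shams read 5.08, 4.41 and 5.04 and the trauma arrays 5.55, 4.75 and 4.79, a difference of 0.19 (SE 0.22). Without rotational trauma array 1 this difference was -0.07. The percussion shams read 4.59, 4.79, 4.91 and 4.60 and the trauma arrays 4.72, 5.0 and 4.96, a difference of 0.17 (SE 0.21). Rotational sham array 2 was the lowest and rotational trauma array 1 the highest of all 13 for Tf, and the same held for the oligodendrocyte marker sum in the rotational model, at 6.73 and 7.13. That sum was led by its brightest gene, Mbp, which differed by -0.06 after rotational trauma and 0.08 after percussion. Of 10 oligodendrocyte markers 8 were above 0 after rotational trauma (median 0.39) and 4 after percussion (median -0.02), against 39.8% and 52.7% of all genes. Their part in the Tf values was not tested.

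Tfrc, the receptor that takes up transferrin, read 0.94, 1.18 and 1.22 in rotational sham and 0.72, 1.13 and 1.00 in rotational trauma. The percussion shams read 1.24, 1.35, 1.06 and 1.05 and the trauma arrays 0.98, 1.26 and 1.18. The groups overlapped in both models, with differences of -0.17 (SE 0.13) and -0.03 (SE 0.12). A second probe, whose coordinates span 1655 bases and so cross an intron, gave -0.22 and -0.03.

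The ferritins stayed within narrow ranges over the 13 arrays. Fth1, the heavy chain with ferroxidase activity, ranged from 6.40 to 6.66, and differed by -0.08 (SE 0.08) after rotational trauma and 0.01 (SE 0.07) after percussion. Its second probe shares 28 of 60 bases with the first and gave -0.03 and -0.08. The light chain ranged from 5.79 to 6.06 and differed by 0.06 (SE 0.08) and -0.08 (SE 0.07). The pooled SD within groups was 0.08 for each, smaller than in most genes: 13% of genes had a smaller SD than Fth1 and 13.6% a smaller one than the light chain, and the median gene had 0.15. For Cp 88.5% of genes had a smaller SD, and for Atp7b 94.2%. Both ferritins have processed copies elsewhere in the genome, and which of them these probes also read was not analysed here.

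Slc40a1, the iron exporter ferroportin, read -3.87, -4.06 and -4.04 in rotational sham and -3.91, -3.92 and -3.77 in rotational trauma, a difference of 0.12 (SE 0.10). The percussion shams read -3.60, -3.22, -3.49 and -3.41 and the trauma arrays -3.34, -3.29 and -3.11, a difference of 0.19 (SE 0.10). Trauma and sham overlapped in both models, while all 7 percussion arrays lay above all 6 rotational arrays. The second probe gave 0.40 after rotational trauma and 0.00 after percussion, and with normexp and quantile normalisation the percussion difference of the first was 0.02.

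**Figure D4:**
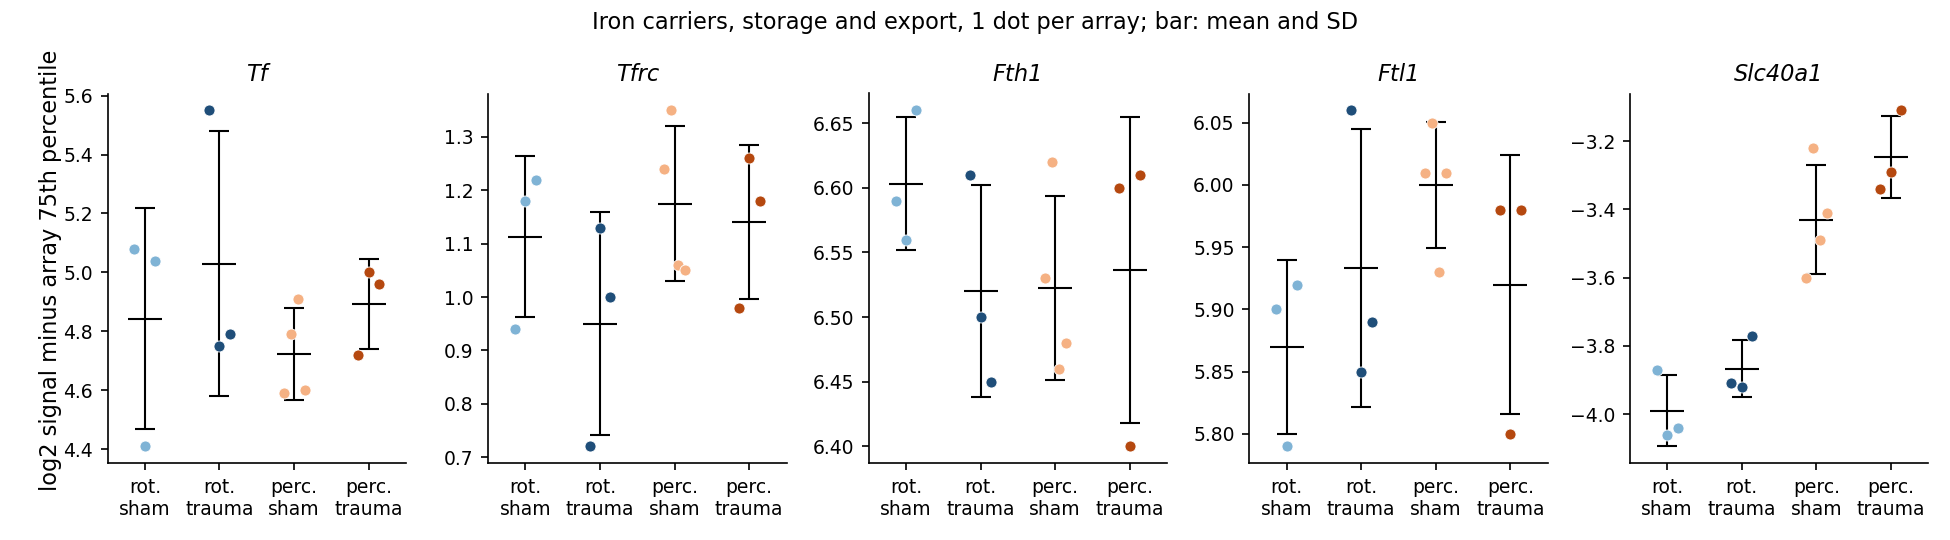
Levels of Tf, Tfrc, Fth1, Ftl1 and Slc40a1, 1 dot per array (vertical axis, log2 signal minus the array's 75th percentile, with its own range in each panel), by group (horizontal axis), with the mean and SD. Trauma and sham overlap in all 5 genes, and Slc40a1 is higher in the percussion arrays than in the rotational ones.

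The shams of the models were compared by limma, a contrast that the choice of genes did not use, although the same sham arrays enter the trauma differences. Atp7a was higher in percussion sham by 1.1 (SE 0.21), or 2.14-fold, with an adjusted p of 0.00612. Slc40a1 was higher by 0.56 (SE 0.10), or 1.48-fold, with an adjusted p of 0.00367, and its second probe differed by 0.51. Both passed in all 21 alternatives run. For Atp7a, the low rotational shams also enter the rotational difference from which it was chosen. Its p is therefore not independent of the choice. Steap4 was lower in percussion sham without overlap (difference -0.74, SE 0.26), and its adjusted p of 0.0559 missed the threshold, passing in 5 of 20 alternatives (0.0182 to 0.145 over all 20). The other 6 genes did not pass, with adjusted p from limma of 0.402 for Cp, 0.343 for Atp7b, 0.704 for Tf, 0.757 for Tfrc, 0.447 for Fth1 and 0.21 for the light chain. Of all genes, 4090 (23.7%) passed in this contrast, 1701 higher (9.86%) and 2389 lower (13.9%), so 2 of 8 is a share near the background. Without overlap 3 of the 8 were higher in percussion sham (Atp7a, Atp7b and Slc40a1), against 16.2% of all genes, and 1 was lower (Steap4), against 25.5%. With no filter on dim probes the split of passing genes was 5191 higher and 2432 lower.

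**Figure D5:**
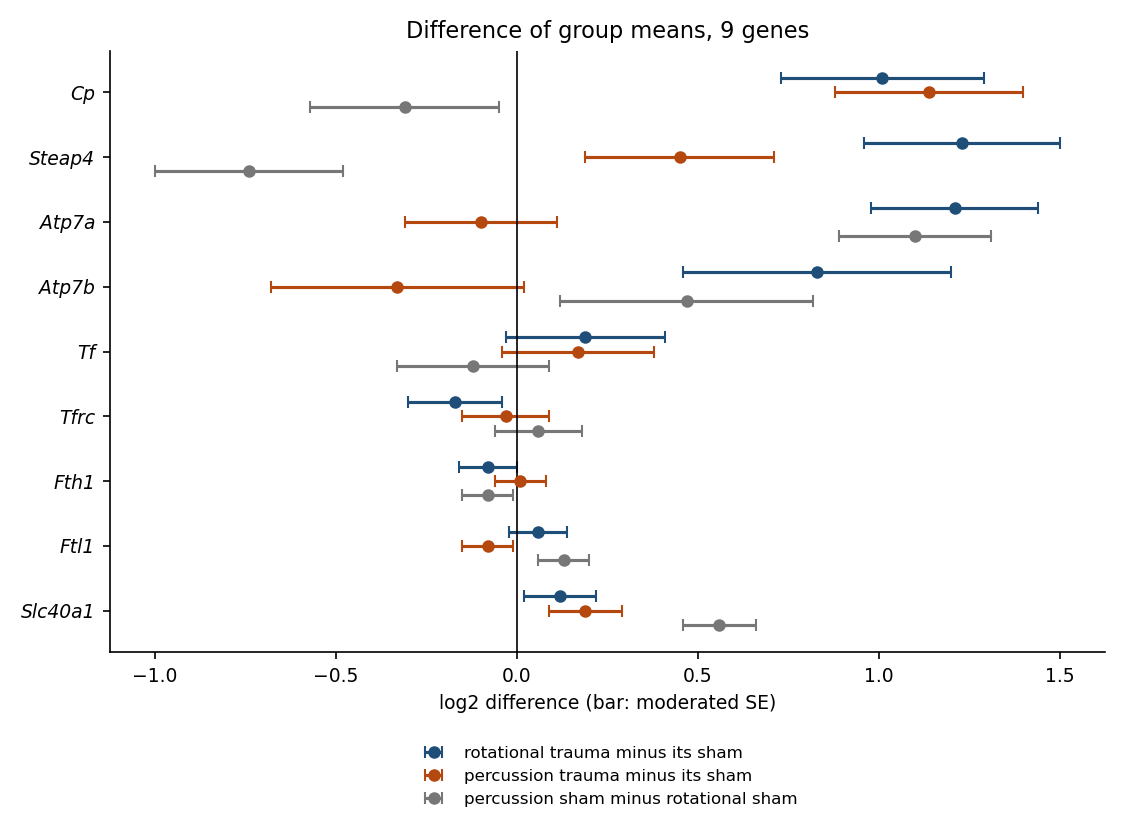
Log2 difference of group means with its moderated SE (horizontal axis) for the 9 genes, for rotational trauma and percussion trauma against their own shams, and for percussion sham against rotational sham. Cp is the gene that lies near 1 in both trauma comparisons, and Atp7a lies above 1 in the rotational and the sham comparison.

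Of 89 further genes of iron and copper handling, 78 passed the filter on dim probes. None passed the test after trauma by limma, with a smallest adjusted p of 0.495 after rotational trauma and 0.226 after percussion, and their median differences were 0.03 and 0.05. Without overlap 5 were higher and 5 lower after rotational trauma (6.41% each), and 5 higher and 2 lower after percussion (6.41% and 2.56%), against 4.87% and 10.6%, and 5.9% and 3.83%, of all genes. Hepcidin (Hamp) and the copper importer Slc31a1 were among those below the filter.

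The genes of smallest p among these are given as values that did not pass. Cd163, the macrophage receptor that takes up haemoglobin bound to haptoglobin, differed by 1.17 (SE 0.33) after rotational trauma, with shams at -4.85, -5.88 and -5.33 and trauma arrays at -3.94, -4.85 and -3.75. After percussion it was at least 2.46-fold higher (limma adjusted p = 0.226), since no percussion sham was well above background there, with measured means of -5.74 and -4.39. Cd163 is also 1 of the 5 border macrophage markers listed here, of which 4 passed the filter. Their summed level was -0.58 to -0.31 and -0.44 to 0.51 in rotational sham and trauma, and -1.31 to -0.71 and -0.30 to 0.91 in percussion sham and trauma. This sum was led by its brightest gene, Cd74, and the part of these cells in the Cd163 values was not tested.

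Among the copper enzymes, the amine oxidase Aoc3 differed by 1.24 (SE 0.29; limma adjusted p = 0.226) and the lysyl oxidase Loxl1 by 0.75 (SE 0.24; limma adjusted p = 0.304) after percussion. Dbh, which makes noradrenaline, differed by 0.54 (SE 0.24) and the metallothionein Mt2A by 0.32 (SE 0.14) after rotational trauma. For Dbh the trauma arrays read -5.39, -5.33 and -4.35 against shams at -5.60, -5.68 and -5.42, so array 3 stood apart, and 1 of the 3 trauma arrays was well above background. Among the genes with a difference below 0, those of smallest p after rotational trauma included the signalling inhibitor Smad7 at -0.17 and the zinc and iron importer Slc39a14 at -0.19. Ireb2, an RNA-binding regulator of ferritin and transferrin receptor messages, was also among them, but 0 of 3 rotational trauma arrays were well above background on its probe and no bound on a fold could be given. After percussion, those of smallest p below 0 included Smad7 at -0.19 and the biliverdin reductase Blvrb at -0.20. Cd163 and Smad7 are named in both models, and the 4 group means of Smad7 lay between 0.47 and 0.66.

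Between the shams, 13 of the 78 passed (16.7%, against 23.7% of all genes), 2 higher and 11 lower in percussion sham. Of all genes, 9.86% passed higher and 13.9% lower, so the share of lower genes was near the background. The haemoglobin carrier haptoglobin (Hp) was higher by 1.87 (SE 0.29; limma adjusted p = 0.00238) and Dbh by 0.89 (SE 0.23; limma adjusted p = 0.018). The lower genes included 4 of the 15 measured genes of mitochondrial iron and iron-sulphur clusters, Iscu (-0.45), Isca1 (-0.33), Bola3 (-0.28) and Cisd2 (-0.47). Fech (-0.61), which inserts iron into haem, was lower, as were Lrp1 (-0.42) and Blvra (-0.71) of haem uptake and breakdown. The copper-binding membrane proteins Prnp (-0.38) and App (-0.45) and the signalling inhibitor Smad6 (-1.05) were lower too.

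Within groups, the genes that followed each member most closely over the 13 arrays were ranked by Pearson's r after each array was centred on its group mean, among 12540 named genes. Arrays share their depth and tissue make-up, so r is a description. Cp was most like Wnt5b (0.968), PCOLCE2 (0.964) and Cxcl16 (0.962), and the genes most like Steap4 included Serpine2 (0.874) and Mapk12 (0.86). Atp7a was most like Ninj2 (0.954), Rnase4 (0.952) and Slc12a2 (0.949), and Atp7b most like Stat5b, Nckap1l and Thg1l (0.912 to 0.913). Tf was most like Ccna2 (0.933), Adcy5 (0.931) and the oligodendrocyte factor Nkx6-2 (0.927), and Tfrc most like Hirip3 (0.924), Fbxw8 (0.871) and Dnajc10 (0.858). The genes most like Fth1 included Ostf1 (0.926) and Samd11 (0.912). The light chain was most like Dnm2, Hnrnpm and Defa24 (0.911 to 0.936), and Slc40a1 most like Vta1, Rpain and Slc23a2 (0.934 to 0.952).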

How the data were processed

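Total RNA of frontal cortex was labelled with Cy3 and hybridised to 13 one-colour Agilent arrays. Scans were read by the authors with Agilent Feature Extraction 10.5.1.1, per the file headers, which list an intensity for every spot. The authors also deposited a table of log2 values, used here as an alternative; every column has the median 8.15 and its sorted values are almost equal between arrays, the form quantile normalisation gives.

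Of 62976 spots, 4259 controls were left out and outlier spots were set missing. The log2 processed signal was scaled by each array's 75th percentile over single spots, and spots of a probe were averaged. The percentile was first taken over probe averages. Single spots were made the main setting after the counts of both were known, because they matched an earlier processing of these data; probe averages are kept as an alternative chosen after seeing the data. A probe was kept where all arrays of 1 or more groups had it well above background (20004 of 30367), and the probe of highest mean stood for a gene (17244 genes). Names were updated from a RefSeq table of GRCr8 (18006 probes by accession, 2654 by symbol, 559 by synonym; 9148 kept the file's name). Probe coordinates are on rn4, from the files.

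limma 3.58.1 in R 4.3.3 fitted 4 group means to the 13 arrays (9 residual and 2.22 prior degrees of freedom), two-sided, with Benjamini-Hochberg adjustment over all genes at 0.05; the script was tested on simulated data. SE is the moderated standard error. The members and lists were chosen with earlier results of these data known. Named were the 9 members, the listed iron and copper genes that passed or otherwise the 3 of smallest p per model and direction, and the 3 genes most like each member; a few of these genes are not reported here. The alternatives were other scalings, background correction, filters, probe choices and fits, and leaving out each array. No spot was saturated (0 on any array), and the number of arrays limits the precision.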

Additional observations from a re-analysis of the deposited data

Results flagged for a closer look

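Atp7a differed between the models: the percussion effect minus the rotational effect was -1.31, from an effect of 1.21 after rotational trauma and -0.10 after percussion. This difference was not tested, since the gene was chosen from these contrasts, and the rotational shams that enter it read lower than every other array. The measured signals of Ireb2 differed by -0.41 after rotational trauma and 0.36 after percussion, 0.77 apart (SE 0.24), which did not pass by limma. Ireb2 passed the filter on dim probes only through percussion trauma, the group where its mean was highest. Its p for this difference is therefore not given and is no test. Its probe was well above background on 2 of 3 rotational shams and all 3 percussion trauma arrays, which lie in slide column 1, and on 0 arrays of column 2. Neither difference gives a bound on a fold, so no direction is read from it.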

How the results depend on the processing

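The directions of Cp, Steap4 and Atp7a after rotational trauma and of Cp after percussion held in all alternatives that gave a value for them (22 or 23 each), with Cp at 0.72 to 1.32 after rotational trauma and 0.94 to 1.28 after percussion when single arrays were left out. Several alternatives could not change a difference, such as leaving out an array of the other model. The genes were also chosen from these differences, so the counts of alternatives are a description and no support. Signs near 0 did not hold: Fth1 after percussion kept its sign in 12 of 23, and Atp7a after percussion was 0.18 with the mean of its probes. The count of genes that passed was less stable, and the causes were not tested. After rotational trauma 2 passed, against 4 with the percentile over probe averages (chosen after seeing the data), 0 with quantile normalisation, 4 with the authors' deposited table, 6 with each model fitted alone and 356 with no filter on dim probes. With no filter, 2979 passed after percussion, 3780 for the difference of the models and 7623 between shams, against 0, 0 and 4090. When single arrays were left out, 0 to 12 passed after rotational trauma, 0 to 5 after percussion, 0 to 21 for the mean of both models, 0 to 8 for their difference and 1869 to 4564 between shams. The sham count was 2286, 2463 and 1869 without rotational sham array 1, 2 and 3. Same-numbered arrays did not deviate together throughout (correlations of 0.02 to 0.265 in the rotational and -0.023 to 0.282 in the percussion model). Whether they share more than a number cannot be told from these correlations or from the labels. With the replicate block 0 passed after rotational trauma, 0 after percussion, 28 for the mean of both (0 without it) and 0 for the difference. No paired analysis was possible between the shams because each model has its own blocks. Dim probes are a limit: Steap4, the second probes of Atp7a and Atp7b, and Cd163 lie near background in at least 1 group.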
